A study of Mus musculus with 13 samples.

Results

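The genes described here encode secreted signals of the activin, bone morphogenetic protein (BMP) and trophic factor families, together with 1 transcription factor that BMP signals switch on. There are 7 of them, Inhba, Bmp2, Bmp4, Gdf6, Msx2, Ndnf and Pdgfb. The authors' 3 deposited tables hold 1593 genes in all. They were chosen by name because most had a value in those tables, so the values that chose them are reported as a description and are not tested again. Of the 7, 6 were among those 1593 genes and Bmp4 was in none of the tables. The samples were primary astrocyte cultures, a type of glia, started from wild-type C57BL/6 mice at postnatal day 1 to 3, with retinas and optic nerves as the source tissue. They were grown in DMEM/F12 with serum and treated for 24 h. Vehicle was given to 4 samples, and each of the compounds to 3 samples. The compounds were SB431542, HLM006474 and one whose name in the sample labels begins with Ro5. The last is called the RUNX1 inhibitor in the text, and its full name is given in the plots. The labels give neither doses nor the number of animals behind each culture. The p-values therefore measure only how far these samples spread, and that spread may be technical.

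SB431542 inhibits the type I receptor kinases through which TGF-beta, activin and Nodal signal, and leaves the type I receptors of BMPs largely free. The RUNX1 inhibitor acts on the transcription factor RUNX1 and its partner CBFB, and HLM006474 inhibits E2F family transcription factors. Each table compares 1 compound with the shared vehicle samples, so the 3 sets of values are not independent. A gene is in a table, called listed below, where the authors' adjusted p was under 0.05 and its fold change was at least 1.495, a log2 value of 0.58. All changes are log2 fold changes against vehicle, given with the authors' standard error (SE). Values per sample were not analysed here, so the depth of each library is unknown and groups cannot be checked for overlap.

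Ligands of the TGF-beta superfamily are dimers that bind pairs of type I and type II receptor kinases. Activins and TGF-betas pass their signal to SMAD2 and SMAD3, and BMPs to SMAD1, SMAD5 and SMAD9, which then act with SMAD4 in the nucleus. Both branches are held in check by extracellular antagonists such as follistatin and noggin and by the inhibitory SMADs. In glia, BMPs favour astrocyte differentiation, and activin and TGF-beta are known for their part in reactive gliosis and matrix production.

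HLM006474 listed the largest number of the genes, 5 of 7, with Inhba, Gdf6, Ndnf and Pdgfb lower and Msx2 higher. SB431542 listed 3 of 7, with Inhba and Ndnf lower and Bmp2 higher. The RUNX1 inhibitor listed Inhba alone, which was lower. Over all genes tested, HLM006474 listed 5.64% (1.42% higher and 4.22% lower), SB431542 listed 4.93% (2.29% higher and 2.64% lower) and the RUNX1 inhibitor listed 2.93% (0.605% higher and 2.32% lower). Because the genes were chosen from these tables, nothing is read from the excess over those shares. In all, 9 of 21 combinations of gene and compound had a value.

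Inhba encodes the beta A subunit of activin A and of inhibin A. The gene lies on chromosome 13 of GRCm38 from 16011851 to 16031621 on the plus strand, with 2 annotated transcripts in GENCODE M21. Because Inhba was the gene listed under each of the compounds, the 250 bases before its annotated start are shown, at chr13:16011601-16011850 on the plus strand of GRCm38.p6, from RefSeq. Capitals mark the TATAAA sequence.

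Inhba promoter: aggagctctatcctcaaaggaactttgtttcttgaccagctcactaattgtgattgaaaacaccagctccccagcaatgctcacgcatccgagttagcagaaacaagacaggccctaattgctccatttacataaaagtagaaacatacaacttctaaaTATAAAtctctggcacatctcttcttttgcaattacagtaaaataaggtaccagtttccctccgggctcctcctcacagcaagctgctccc

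The TATAAA match lay between 91 and 86 bases before the start, and 12.4% of 32851 RefSeq promoter windows of the same length held that sequence on either strand. No annotated exon overlapped the window. Its GC content was 43.2%, beside a median of 52.4% over those promoters. On both strands the window held no match to the SMAD sequences CAGAC, GTCTAGAC and GGCGCC, which 42.2%, 0.167% and 9.59% of the promoters held. It held none to the E2F sequences TTTCCCGC and TTTGGCGC, found in 0.895% and 0.417%, or to the RUNX sequences TGTGGT and TGCGGT, found in 14.0% and 5.10%. TGANTCA (AP-1, in 6.75%) and TGACGTCA (CRE, in 1.55%) were not found either. These letters are not in this window, which says nothing of binding elsewhere. RefSeq promoter windows were also matched for Msx2 and Bmp4, and neither held any of these 10 sequences in its 250 bases before the start. Bmp2, Gdf6, Ndnf and Pdgfb were not matched.

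In the authors' deposited tables Inhba stood at -1.12 ± 0.26 (SE) under SB431542, with a 95% interval from -1.63 to -0.62. Under the RUNX1 inhibitor the authors' deposited table gives -0.94 ± 0.26, and under HLM006474 it gives -0.99 ± 0.26. On the linear scale these are 45.9%, 52.2% and 50.5% of the vehicle level. In bulk samples, fewer cells of a type and less RNA per cell cannot be told apart.

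The authors' deposited tables give Inhba the same mean normalised count of 134, which is the mean over all libraries of counts scaled for depth. With the 3 fold changes and the group sizes, that mean works back to about 206 normalised counts in vehicle. It works back to 94.7 under SB431542, 108 under the RUNX1 inhibitor and 104 under HLM006474. These group levels are worked back from fitted values, assume that the authors' fit held these 13 libraries only, and carry no SD. The 3 treated levels lie close together and well below the vehicle level.

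**Figure D1:**
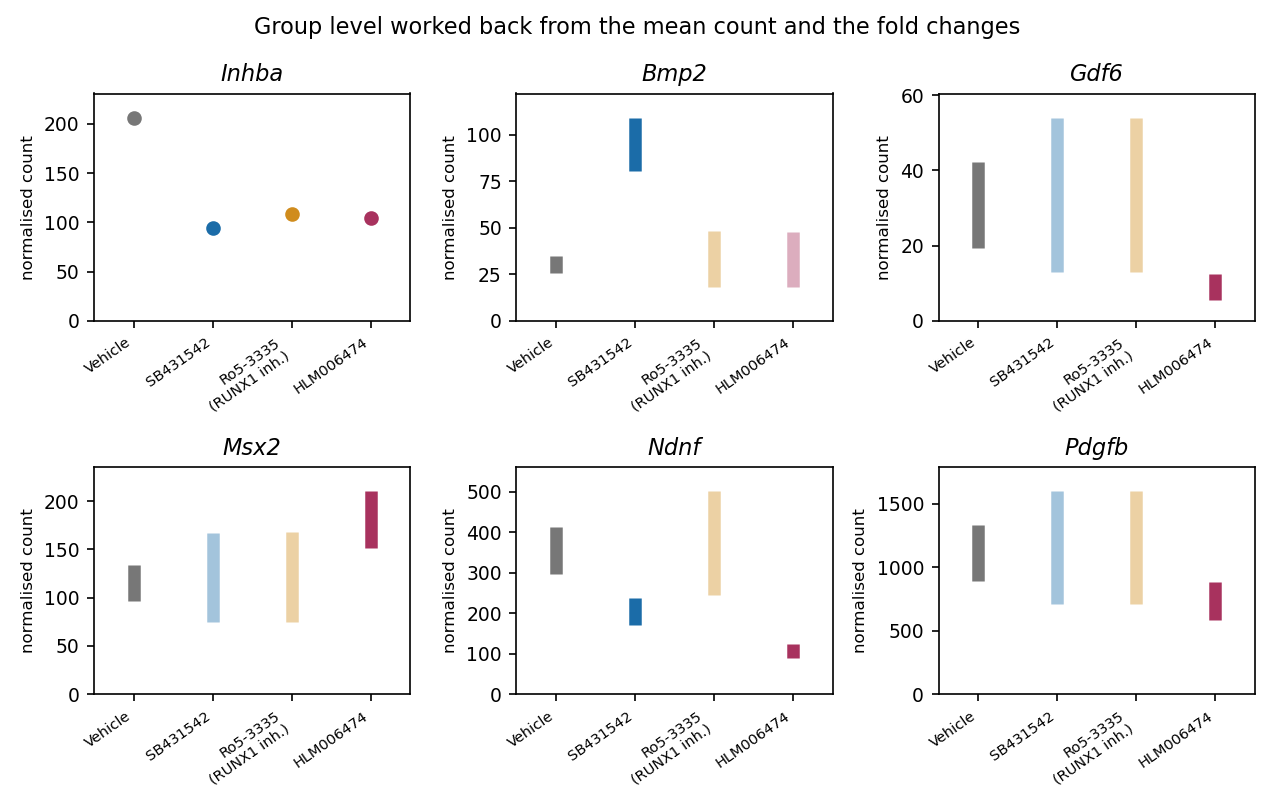
Group levels in normalised counts (vertical axes, from 0) of 6 genes in vehicle and under each compound, worked back from the authors' mean count and fold changes. Points are single values and bars are the range that remains possible because the gene was not listed under some compounds (pale bars). Inhba is at 206 in vehicle and between 94.7 and 108 under the compounds, and Ndnf is lowest under HLM006474.

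The compounds did not separate for Inhba within the errors. SB431542 minus the RUNX1 inhibitor was -0.19 on the log2 scale, with a 95% interval from -0.90 to 0.53. SB431542 minus HLM006474 was -0.14 (-0.85 to 0.58), and the RUNX1 inhibitor minus HLM006474 was 0.05 (-0.66 to 0.76). These intervals add both errors and leave out that the vehicle samples are shared. Taking those samples out narrowed the intervals, if the spread is equal in all groups. In the same order they were -0.73 to 0.35, -0.68 to 0.40 and -0.49 to 0.59. Each still holds a difference of more than 0.5 in size, so a like action of the compounds is not shown.

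By size of the change among falling genes, Inhba was at rank 129 of 401 under SB431542, 86 of 315 under the RUNX1 inhibitor and 216 of 640 under HLM006474. In each table it lay below the median falling gene, which stood at -0.88, -0.77 and -0.84 in that order. Its SE was large for its count among the listed genes. All of these had passed the p limit, which leaves out genes with a large SE for their change. Such ranks may therefore overstate how imprecise a gene is for its count. Of the 50 listed genes nearest in mean count, 45 had a smaller SE in the SB431542 table, where their median SE was 0.195. The count was also 45 of 50 in the tables of the RUNX1 inhibitor and HLM006474. If the spread is equal in all groups, the SE corresponds to a coefficient of variation of 23.5% between samples. Counting error alone would give 8.63% at this mean count. The 23.5% is worked back from the authors' fitted SE and is not a spread measured between samples.

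Inhba was one of 57 genes in all 3 tables, of which 38 were lower in each. The genes nearest to it by Euclidean distance over the 3 log2 fold changes were Fgl2, Ltbp2, Prmt8, Npas1 and Oxtr, at distances of 0.174, 0.181, 0.275, 0.277 and 0.283. The median distance over the other 56 genes was 0.672. In all, 14 genes lay within 0.447, the root of the summed squares of the Inhba SEs, so the 5 named are not set apart from the rest of those 14. Fgl2, a fibrinogen-like secreted protein, stood at -1.13 ± 0.13 under SB431542 and -0.82 ± 0.12 under HLM006474, with the RUNX1 inhibitor between them, in the authors' deposited tables. Ltbp2, a matrix protein, stood at -1.22 ± 0.080 under SB431542 in the authors' deposited tables. Those tables give -0.85 ± 0.079 under the RUNX1 inhibitor and -0.87 ± 0.079 under HLM006474. In those tables the arginine methyltransferase gene Prmt8, the transcription factor gene Npas1 and the oxytocin receptor gene Oxtr lay between -1.17 and -0.71. This nearness rests on the size of the changes alone. By distance over the Wald scores, which are fold changes divided by their SE, the nearest 5 were Pcdh18, Cyb561, Adamts7, Pakap and Mgp, and 0 of the first 5 were among them.

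**Figure D2:**
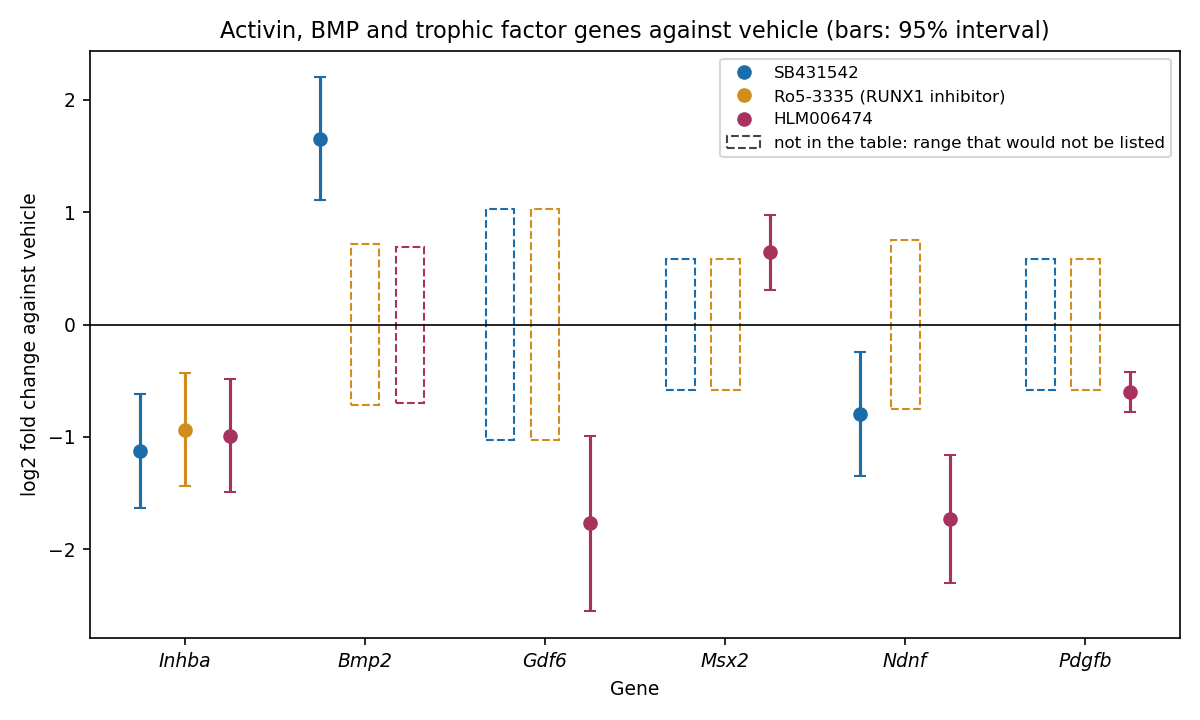
Log2 fold change against vehicle (vertical axis) of 6 genes under SB431542, the RUNX1 inhibitor and HLM006474, with 95% intervals from the authors' SE. Dashed boxes mark, for a gene that was not listed, the changes too small to be listed. Inhba is below 0 under each compound, and Bmp2 stands at 1.65 under SB431542.

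Bmp2 encodes a BMP ligand and lies on chromosome 2 from 133552159 to 133562885 on the plus strand of GRCm38. It was listed under SB431542, where the authors' deposited table gives 1.65 ± 0.28 (95% interval 1.11 to 2.20), or 3.14 times the vehicle level. It was the highest log2 fold change among the 7 genes, at rank 60 of 347 rising genes by size. The gene was weakly measured, with a mean normalised count of 45.7 in the authors' deposited table, which is below that of most listed genes (percentile 23.1). Its precision was ordinary for that count, since 13 of the 50 listed genes nearest in count had a smaller SE.

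Under the RUNX1 inhibitor and HLM006474, Bmp2 was not listed. At its SE, a change of at least 0.72 under the RUNX1 inhibitor or 0.69 under HLM006474 would have been listed if the gene entered the adjustment of p. Changes of up to 1.65 and 1.62 times the vehicle level in either direction are therefore possible there. Taking those limits, and leaving out the SE, the mean count places Bmp2 between 25.6 and 34.7 normalised counts in vehicle and between 80.5 and 109 under SB431542. The range is 18.0 to 48.4 under the RUNX1 inhibitor and 18.2 to 47.8 under HLM006474, below the range for SB431542. Whether Bmp2 changed under those compounds within these limits is unknown.

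Bmp4, the BMP ligand closest to Bmp2 in sequence, lies on chromosome 14 from 46383520 to 46390669 on the minus strand of GRCm38. It was in none of the tables, so no level, change or SE can be given for it. With no SE, the size of change that its absence leaves possible cannot be worked out.

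Gdf6 encodes a growth differentiation factor of the BMP group that is required for eye development. It lies on chromosome 4 from 9844372 to 9862345 on the plus strand of GRCm38. Under HLM006474 the authors' deposited table gives -1.77 ± 0.40 (95% interval -2.55 to -0.99), or 29.3% of the vehicle level. This rank of 41 of 640 falling genes was the highest by size among the 4 lower genes, but the mean normalised count was 25.4 and the SE the largest of the 6 genes. For a listed gene of this count the SE was near the middle, with 22 of 50 like genes below it.

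Gdf6 was not listed under SB431542 and the RUNX1 inhibitor, where a change had to reach 1.02 and 1.03 to be listed at this SE. A halving of the gene under either compound would thus have been close to the limit. The worked-back level was 5.66 to 12.4 normalised counts under HLM006474 and 19.3 to 42.2 in vehicle, while the ranges for SB431542 and the RUNX1 inhibitor both ran up to 54.0. Their lower ends lie just above the range for HLM006474.

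Msx2, a homeobox transcription factor, is a direct target of BMP signalling in many tissues. It lies on chromosome 13 from 53466884 to 53473074 on the minus strand of GRCm38. It was higher under HLM006474, at 0.65 ± 0.17 in the authors' deposited table (95% interval 0.31 to 0.98), or 1.57 times vehicle. Its mean normalised count was 131, close to that of Inhba, and its SE was smaller, with 9 of 50 listed genes of like count below it. Under SB431542 and the RUNX1 inhibitor, where Msx2 was not listed, a change under 0.58 remains possible. Its worked-back range under HLM006474, 151 to 210 normalised counts, overlaps the ranges of 74.9 to 167 under SB431542 and 74.9 to 168 under the RUNX1 inhibitor. That overlap comes from the unknown vehicle level. Against the same vehicle level and leaving out the SE, 1.57 times under HLM006474 is above the limit of 1.5 times under the other compounds.

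The other BMP targets on the list, Id1, Id2, Id3, Id4, Msx1, Dlx5, Atoh8 and Hey1, were not listed under any compound. Under HLM006474, 1 of 9 BMP targets was thus listed (11.1%, beside 5.64% of all genes tested). Under SB431542, where Bmp2 was higher, 0 of 9 were listed, beside 4.93% of all genes tested. On a list this short such counts lie near those shares, and nothing is read from them.

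Ndnf encodes a secreted neurotrophic factor with fibronectin type III domains that supports neurons and blood vessels. It lies on chromosome 6 from 65671590 to 65712326 on the plus strand of GRCm38. Under HLM006474 the authors' deposited table gives -1.73 ± 0.29 (95% interval -2.30 to -1.16), or 30.2% of vehicle. Under SB431542 the authors' deposited table gives -0.80 ± 0.28 (-1.35 to -0.24), or 57.6% of vehicle. The gene was thus lower under both, with the lower value under HLM006474.

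The difference of SB431542 minus HLM006474 for Ndnf was 0.93, with a 95% interval from 0.14 to 1.73. Taking out the shared vehicle samples, if the spread is equal in all groups, narrowed the interval to 0.33 to 1.54. As the gene was chosen for its values in these tables, this difference is a description and not a test. Ndnf was not listed under the RUNX1 inhibitor, where a change of at least 0.75 would have been. Its worked-back level was 298 to 414 normalised counts in vehicle, 172 to 238 under SB431542 and 90.0 to 125 under HLM006474. Under the RUNX1 inhibitor the range was 246 to 501.

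Ndnf was the least precise of the genes for its count, as ranked among listed genes only. Its SE was above that of 49 of 50 listed genes of like count under SB431542. Under HLM006474 it was above that of 50 of 50, where the median SE of those genes was 0.156. The p limit leaves out genes with a large SE for their change, so these ranks may overstate the imprecision. The coefficient of variation implied by the authors' fitted SE was 26.4%, beside 6.11% from counting error at a mean normalised count of 268. It is likewise not a spread measured between samples. Which samples lie behind the large SE was not examined, since values per sample were not analysed here.

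Pdgfb encodes the B chain of platelet-derived growth factor, a mitogen for pericytes, fibroblasts and glial progenitors. It lies on chromosome 15 from 79995874 to 80014977 on the minus strand of GRCm38. Its mean normalised count of 1026 in the authors' deposited table was the highest of the 6 genes. Under HLM006474 the authors' deposited table gives -0.60 ± 0.092 (95% interval -0.78 to -0.42), or 66.1% of vehicle. By size this was rank 611 of 640 falling genes.

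Among the 7 genes, Pdgfb lay closest to the fold limit and Ndnf under SB431542, with an adjusted p of 0.0291 from the authors' DESeq2 fit, closest to the p limit. Pdgfb was not listed under SB431542 and the RUNX1 inhibitor, where its change was under the fold limit of 0.58 if the gene was tested. A fall of nearly the size seen under HLM006474 is therefore possible there. Its worked-back range under HLM006474, 589 to 882 normalised counts, overlaps the range of 715 to 1599 for both other compounds. That overlap comes from the unknown vehicle level. Leaving out the SE, 66.1% of the same vehicle level under HLM006474 is just below the limit of 66.9% under the other compounds.

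**Figure D3:**
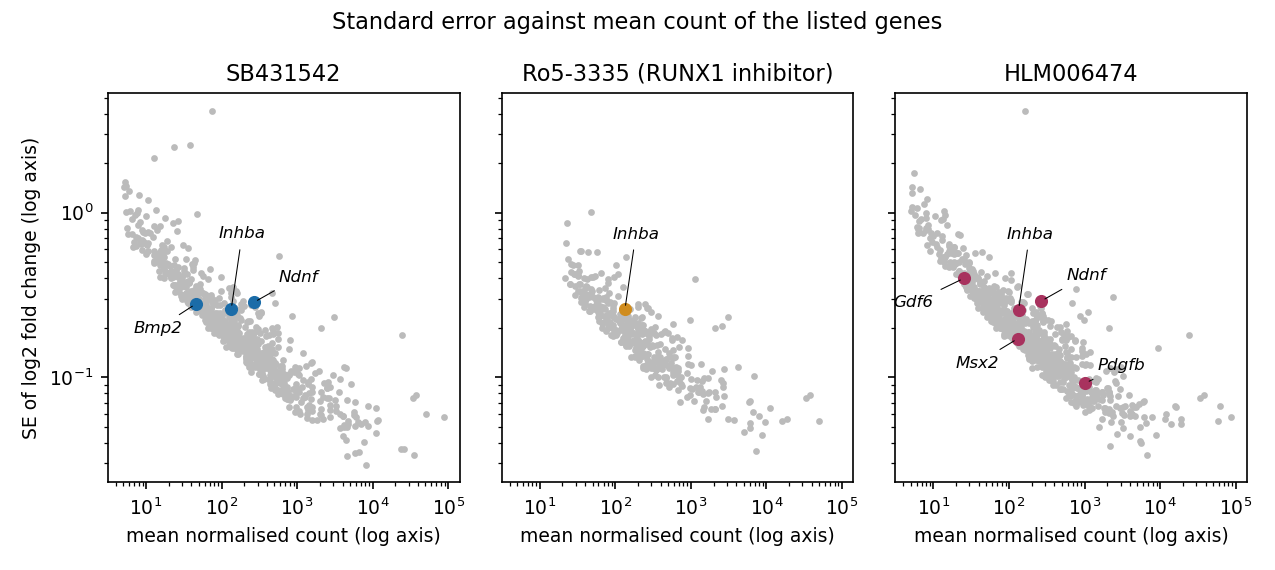
Standard error of the log2 fold change against mean normalised count, both on log axes, for all listed genes (grey) and the genes described (coloured) under each compound. Ndnf and Inhba lie near the upper edge of the cloud at their count, and Bmp2, Gdf6, Msx2 and Pdgfb lie within it.

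Per kilobase of annotated exon, the mean normalised count was 247 for Pdgfb, 39.9 for Msx2, 26.5 for Ndnf, 21.0 for Inhba, 12.9 for Bmp2 and 7.19 for Gdf6. Pdgfb thus had the highest and Gdf6 the lowest of these values, which pool vehicle and treated samples and are not levels in untreated cells. Whether neighbours in this order differ beyond their spread between samples was not tested. None of the 6 listed genes shared exon bases with another annotated gene. Bmp4 shared 89 exon bases with Gm15217 on the opposite strand, and for that gene reads of both strands may be mixed, since a strand setting was not found in the labels.

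The other genes of these pathways were taken from 8 lists of 129 genes in all, 122 of them besides the 7 genes described. Of those 122, SB431542 listed 2 higher and 6 lower (6.56%, beside 4.93% of all genes tested). The RUNX1 inhibitor listed 2 higher and 1 lower (2.46%, beside 2.93%), and HLM006474 listed 4 higher and 2 lower (4.92%, beside 5.64%). By direction, SB431542 listed 1.64% higher and 4.92% lower, beside 2.29% and 2.64% of all genes tested. The RUNX1 inhibitor listed 1.64% higher and 0.820% lower, beside 0.605% and 2.32%, and HLM006474 listed 3.28% higher and 1.64% lower, beside 1.42% and 4.22%. These differences rest on few genes and were not tested. The lists include genes that these cells may not express, and how many entered the adjustment of p is unknown.

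Of 16 extracellular antagonists and modulators, 2 were listed under SB431542, both lower, where 2.64% of all genes tested were listed lower. Fst, encoding the activin-binding protein follistatin, stood at -1.25 ± 0.14 and Bmper, a secreted BMP modulator, at -0.96 ± 0.12 in the authors' deposited table. Of 8 SMADs 1 was listed under SB431542, the inhibitory Smad7, at -1.06 ± 0.15 in the authors' deposited table. Of 16 receptors 1 was listed under SB431542, Tgfbr1, at -1.01 ± 0.071 in the authors' deposited table. Follistatin and the activin subunit it binds were thus both lower, while Bmp2 was higher where Bmper was lower.

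No gene on those lists of antagonists, receptors and SMADs was listed under the RUNX1 inhibitor or HLM006474. The PDGF receptor gene Pdgfra was counted with the PDGF family. Among ligands, Gdf15, a stress-induced distant member of the family, stood at 1.27 ± 0.21 under SB431542 and 1.26 ± 0.21 under HLM006474 in the authors' deposited tables. Bmp7 and Gdf9 stood at -0.59 ± 0.16 and 1.30 ± 0.49 under HLM006474, and Bmp3 at 0.87 ± 0.29 under the RUNX1 inhibitor, in the authors' deposited tables. Of 17 BMP and GDF ligands, HLM006474 thus listed 2 lower and 1 higher, SB431542 1 higher and the RUNX1 inhibitor 1 higher. Over all genes tested, HLM006474 listed 4.22% lower and 1.42% higher, SB431542 2.29% higher and the RUNX1 inhibitor 0.605% higher. These counts are small and were not tested, and they include Bmp2 and Gdf6, which were chosen for their values. None of the 17 was listed under more than 1 compound, as was so for most listed genes, since 351 of 1593 were in more than 1 table.

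**Figure D4:**
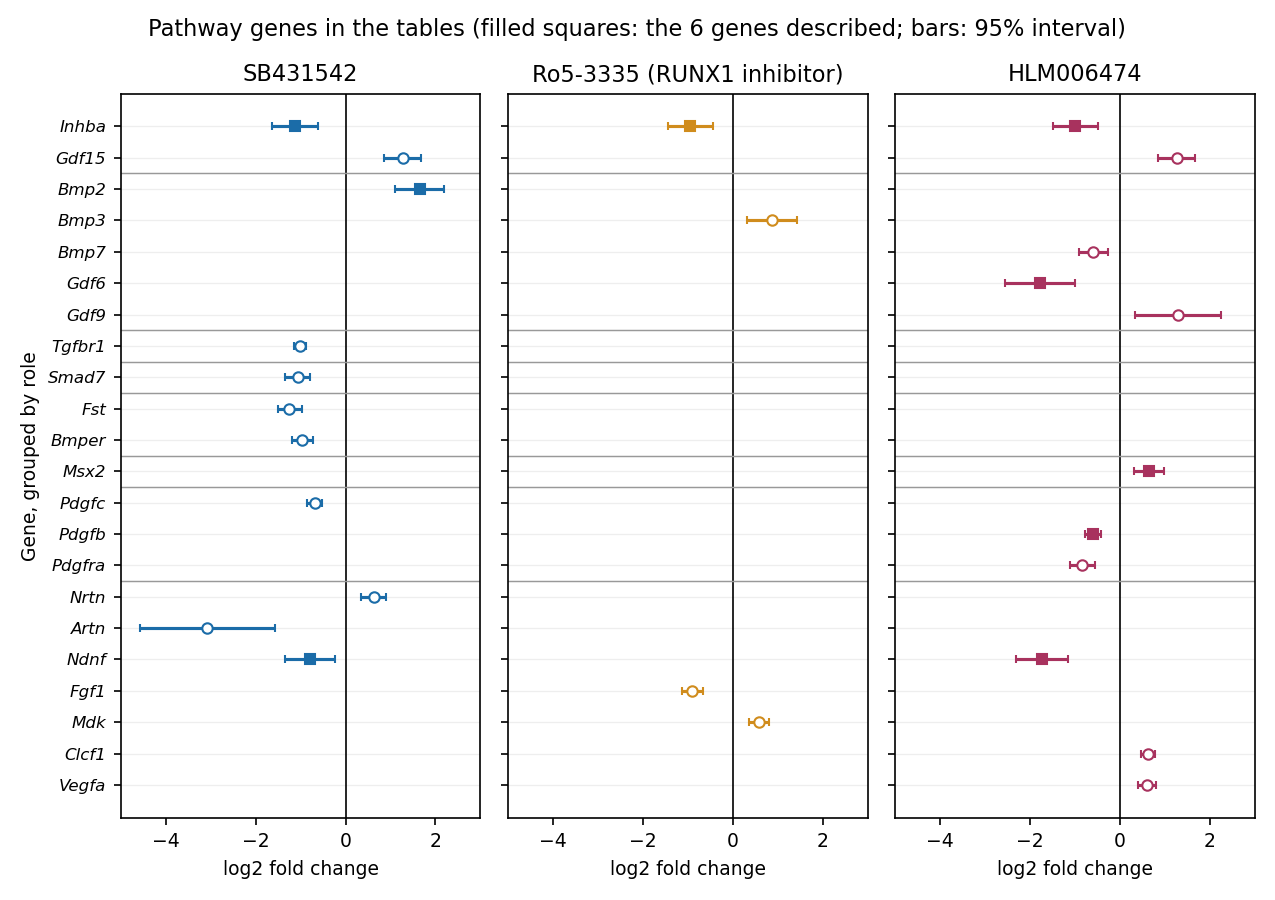
Log2 fold change against vehicle (horizontal axes) with 95% intervals for each pathway gene in a table, grouped by role from ligands at the top to trophic factors at the bottom. Filled squares are the 6 genes described and open circles the other listed genes. Inhba is the gene with a value in each panel, and Fst and Bmper have values under SB431542.

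Among the PDGF family, Pdgfra, the receptor for several PDGF dimers, was lower beside Pdgfb under HLM006474, at -0.84 ± 0.14 in the authors' deposited table. Pdgfc, another ligand of that receptor, was lower under SB431542, at -0.69 ± 0.083 in the authors' deposited table. Of the 41 trophic factors, SB431542 listed the GDNF-family ligands Nrtn at 0.63 ± 0.14 and Artn at -3.08 ± 0.76, besides Ndnf, in the authors' deposited table. Artn had a mean normalised count of 10.7. The RUNX1 inhibitor listed Fgf1, a fibroblast growth factor, at -0.90 ± 0.12 and midkine, Mdk, at 0.58 ± 0.11, and HLM006474 listed the cytokine gene Clcf1 at 0.62 ± 0.074 and Vegfa at 0.61 ± 0.10, in the authors' deposited tables. In all, 3 of 41 trophic factors were listed under SB431542 (7.32%, beside 4.93% of all genes tested), 2 under the RUNX1 inhibitor (4.88%, beside 2.93%) and 3 under HLM006474 (7.32%, beside 5.64%), with both directions among them each time.

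Markers of other cell types moved in the same tables. Beside the counts below, HLM006474 listed 1.42% higher and 4.22% lower of all genes tested. SB431542 listed 2.29% higher and 2.64% lower, and the RUNX1 inhibitor 0.605% and 2.32%. Counts of 1 or 2 on lists this short were not tested, and nothing is read from them. Under HLM006474, where Gdf6, Ndnf and Pdgfb were lower, 6 of 7 oligodendrocyte lineage markers were lower, with Pdgfra, which is on that list too, and Mbp at -1.20 ± 0.35 in the authors' deposited table. Of 8 microglia and macrophage markers, 3 were lower and 1 higher there. Under SB431542, where Bmp2 was higher, 4 of those 8 were lower and 2 higher, with Lyz2 at 0.65 ± 0.18 and C1qa at -0.66 ± 0.052 in the authors' deposited table. The microglia markers Tmem119, Cx3cr1 and P2ry12 stood lower there, at -4.00 ± 0.11, -2.21 ± 0.081 and -1.19 ± 0.17 in the authors' deposited table. Under the RUNX1 inhibitor none of those 8 and none of the 7 oligodendrocyte lineage markers was listed, and Inhba stood at -0.94 there. Of 6 mural and fibroblast markers, 2 were lower under SB431542, 1 under the RUNX1 inhibitor and 2 under HLM006474. Among them Acta2 was lower in each table, at -0.64 ± 0.078, -1.19 ± 0.078 and -1.09 ± 0.078 in that order in the authors' deposited tables. Col1a1 was listed under SB431542 alone, at -1.08 ± 0.054 in the authors' deposited table. Of 4 neuron markers 1 was lower under the RUNX1 inhibitor and 1 under HLM006474, and of 3 Müller glia markers 1 was lower under the RUNX1 inhibitor. Endothelial markers, 4 in number, were not listed under any compound. Of 10 astrocyte markers 1 was listed under each compound, and it was lower. In the authors' deposited tables Kcnj10 stood at -0.77 ± 0.037 under SB431542, and Fabp7 at -0.67 ± 0.055 under the RUNX1 inhibitor and -0.64 ± 0.055 under HLM006474. Their mean normalised counts were 23893 and 18965, and the levels of the other 8 were not analysed here. The part of these cells in the values of the genes described was not tested.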

How the data were processed

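RNA was sequenced in 13 samples. The submitters' processing notes name CASAVA 1.8, STAR 2.7, DESeq2 1.30.1 and GRCm38. The read counter and its strand setting were not given in the sources used here. Per the file headers, the authors' deposited tables give a mean normalised count (a signal level), a log2 fold change with its SE on the log2 scale, a Wald score, a p-value and an adjusted p-value, and a row number was not used. The tables hold listed genes only, and the mean count was identical for 350 of 351 genes in more than 1 table. The exception, Nadk2, is on 2 rows of the HLM006474 table.

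The number of genes tested was recovered from p and adjusted p, as the number that makes the largest share of ranks whole within 0.02 (80.49% to 83.63%). It was 15169 for SB431542 and HLM006474 and 13561 for the RUNX1 inhibitor, and this step was tested on simulated data. The smallest change that could have been listed is the larger of the smallest listed fold change and the smallest listed Wald score times the gene's SE in another table. Intervals are normal 95% intervals. Python 3.11.15, pandas 2.3.3 and GENCODE M21 were used.

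The genes and lists were chosen with earlier results of these data known, and 1 gene was taken off the lists and is not reported here. The genes named are the 7 genes, each pathway list gene in a table, the 5 genes nearest to Inhba and up to 2 markers per list, those with the highest mean count. Beyond that rule, the nearest 5 by Wald score and the microglia markers Tmem119, Cx3cr1 and P2ry12 were named after they were seen. Alternatives were stricter limits on adjusted p, fold and mean count, and other error terms, and the difference for Ndnf was added after the data were seen.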

Additional observations from a re-analysis of the deposited data

How the results depend on the processing

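A log2 change of at least 1, met by 1.87% of all genes tested for HLM006474, 0.634% for the RUNX1 inhibitor and 2.07% for SB431542, left 2 of 5 genes under HLM006474, 0 of 1 under the RUNX1 inhibitor and 2 of 3 under SB431542. It left 4 of 11 pathway genes under HLM006474, 0 of 4 under the RUNX1 inhibitor and 7 of 11 under SB431542. Without the 7 genes, HLM006474 kept 6 of 11. With adjusted p under 0.01, 8 of the 9 values of the 7 genes remained, and Ndnf under SB431542 was lost. Most listed genes met that limit, 586 of 748 for SB431542, 315 of 397 for the RUNX1 inhibitor and 655 of 856 for HLM006474. These are 3.86%, 2.32% and 4.32% of all genes tested. A mean count of at least 100 removed Bmp2 and Gdf6. In the same order, 3.07%, 2.05% and 3.65% of all genes tested were listed with such a count. Of the 5 genes nearest to Inhba, 0 remained by Wald scores. Applying the 95th percentile of the SE ratio raised the limits for absent genes by a factor of at most 1.056. Leaving out the vehicle share of the error cannot move the Inhba differences themselves. It narrowed their 3 intervals, each of which still held 0. For SB431542 minus the RUNX1 inhibitor the interval was -0.90 to 0.53 before and -0.73 to 0.35 after. No paired analysis was possible because the tables hold no values per sample, and leaving out single samples was not run for the same reason.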
